A study of Mus musculus with 18 samples.

Results

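Oxidative phosphorylation genes encode the respiratory chain and the ATP synthase of mitochondria. They were taken here as the gene symbols that begin with Nduf, Uqcr, Cox followed by a digit, or Atp5, together with Sdha, Sdhb, Sdhc and Sdhd. Of 102 such symbols, 1 pseudogene symbol was left out. A further 7 genes did not reach 10 RPM (reads scaled to a common library total) in at least 2 of the 18 libraries. The remaining 94 genes are described here, out of 9561 genes that passed the same threshold. Members were thus chosen by name and by their RPM levels. The rule reads no difference between groups, but the gene family itself was taken up with earlier results of these data known. Of the 94, 88 were at 10 RPM or more in every library. The other 6, Cox7a1, Cox19, Atp5s, Cox20, Ndufaf7 and Sdhd, passed through part of the libraries.

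The series follows mouse primordial germ cell-like cells (PGCLCs), the in vitro counterpart of the embryonic founders of eggs and sperm, before and during culture. SC3-seq, which sequences the 3′ ends of amplified cDNA, was applied to 1 ng of RNA per library, in 9 groups of 2 libraries. Embryonic stem cells (ESC, grown in 2i and LIF without feeders), epiblast-like cells (EpiLC, day 2) and PGCLCs at day 4 of induction (d4) were labelled C57BL/6 and carried Blimp1-mVenus and Stella-ECFP reporters. ESC and EpiLC were unsorted, and d4 cells were sorted for mVenus. The d4c7 groups carried the same reporters but the strain label B6D2F1. They were d4 PGCLCs cultured for 7 further days on mitomycin-treated m220-5 feeder cells and sorted again for mVenus. Their 4 conditions were FR10 (10 µM forskolin with rolipram, agents that raise cAMP), CsA (cyclosporin A, a calcineurin inhibitor), FGF10 and FGF2, named as in the labels. The E9.5c5 groups, FR10 and CsA, held germ cells of E9.5 embryos of B6D2F1 x C57BL/6 mice with a Stella-EGFP reporter, cultured for 5 days on the feeders and sorted for EGFP. The medium of all cultures contained stem cell factor. Whether forskolin and rolipram were also present in the CsA and FGF cultures is not given in the sources used here, nor are the doses of CsA and the FGFs.

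The respiratory chain passes electrons from NADH through complex I, and from succinate through complex II, to ubiquinone, then through complex III and cytochrome c to oxygen at complex IV. Complexes I, III and IV move protons across the inner mitochondrial membrane, and complex V, the ATP synthase, uses that gradient to make ATP. Complex II, succinate dehydrogenase, is also an enzyme of the tricarboxylic acid cycle, moves no protons, and has all its subunits encoded in the nucleus. The mitochondrially encoded subunits of the other complexes were not analysed here. By role, the 94 genes were 36 subunits and 7 assembly factors of complex I, 4 subunits of complex II, 8 of complex III, 14 subunits and 8 assembly factors of complex IV, and 16 genes of complex V. Atp5sl was on none of these lists.

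Promoter windows of RefSeq (build GRCm38.p6, from 250 bases before to 50 bases after a transcript start) were found for 80 of the 94 genes. Some of the changes called from d4 to FR10 were refitted with each library left out. Among these, the calls of Sdhd, Cox6b2 and Ndufa6 alone held throughout, and Cox6b1 is the ubiquitous partner of Cox6b2. Windows of these 4 genes are shown, a choice made after their values were seen. They are Cox6b1 (chr7:30626065-30626364), Cox6b2 (chr7:4753045-4753344), Sdhd (chr9:50603800-50604099) and Ndufa6 (chr15:82354242-82354541), each on the minus strand and written 5′ to 3′ along the gene. Capitals mark matches to the motif of the respiratory factor NRF1, searched as GCGC, any 2 bases and GCGC again, and to CCGGAAG, the motif of ETS factors, on either strand.
Cox6b1: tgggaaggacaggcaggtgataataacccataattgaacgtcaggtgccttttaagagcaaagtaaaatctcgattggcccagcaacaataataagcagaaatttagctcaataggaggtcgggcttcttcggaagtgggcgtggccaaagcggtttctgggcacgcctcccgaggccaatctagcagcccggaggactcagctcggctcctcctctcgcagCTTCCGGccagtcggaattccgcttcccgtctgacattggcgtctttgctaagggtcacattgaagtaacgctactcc
Cox6b2: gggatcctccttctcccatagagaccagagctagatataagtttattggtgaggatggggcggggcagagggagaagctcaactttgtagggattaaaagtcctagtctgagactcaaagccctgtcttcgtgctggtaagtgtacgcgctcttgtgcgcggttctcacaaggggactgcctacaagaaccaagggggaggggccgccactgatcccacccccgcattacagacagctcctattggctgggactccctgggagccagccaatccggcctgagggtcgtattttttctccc
Sdhd: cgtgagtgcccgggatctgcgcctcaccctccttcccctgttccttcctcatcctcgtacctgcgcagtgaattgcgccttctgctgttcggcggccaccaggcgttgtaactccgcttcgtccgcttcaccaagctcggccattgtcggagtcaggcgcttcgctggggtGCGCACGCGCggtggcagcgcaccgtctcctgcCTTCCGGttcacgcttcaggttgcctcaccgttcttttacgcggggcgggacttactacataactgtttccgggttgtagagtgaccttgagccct
Ndufa6: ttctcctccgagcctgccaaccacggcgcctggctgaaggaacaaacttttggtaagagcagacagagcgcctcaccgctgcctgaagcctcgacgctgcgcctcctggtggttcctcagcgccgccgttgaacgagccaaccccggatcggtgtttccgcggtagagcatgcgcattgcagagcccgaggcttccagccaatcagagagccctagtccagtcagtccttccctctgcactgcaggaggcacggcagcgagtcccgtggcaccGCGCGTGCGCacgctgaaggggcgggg
In these windows Cox6b1 held the ETS letters, Sdhd held both motifs, Ndufa6 held the NRF1 letters and Cox6b2 held neither. The NRF1 letters occurred in a window of 21 of the 80 genes (26.25%), against 16.9% of 7748 tested genes with a window and 6.23% of all 32851 windows. The ETS letters occurred in 26.25% of the 80 genes, 22.7% of the tested genes and 8.86% of all windows. ATGGCGG, the motif of YY1, was in 17.5%, 10.6% and 4.05%, and GGGCGG, the motif of SP1, in 46.25%, 72.5% and 35.7%. CCAAT, the motif of NF-Y, was in 43.75%, 43.9% and 37.4%, the closest of the 5 motifs between the 80 genes and the tested genes. By complex, the NRF1 letters were in 9 of 32 complex I genes, 6 of 15 complex V genes, 2 of 3 complex II genes and 1 of 12 complex IV subunits with a window. These matches describe the letters of the windows and no binding.

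The authors' RPM values summed to between 999098 and 999617 per library, and the step between low values corresponds to 2129326 to 7547917 reads, so that 3 reads equal 0.397 to 1.41 RPM. Summed germ cell markers stood at 1709 and 1550 RPM at d4 and 38.1 and 51.1 RPM in EpiLC, and epiblast markers were called lower at d4 in 4 of 4 cases. Summed markers of fibroblasts, the kind of cell used as feeders, were 1144 and 1125 RPM in the feeder-free ESC, 189 and 189 in EpiLC, 362 and 419 at d4 and 808 and 706 in d4c7 FR10. From ESC to EpiLC Fn1 was called lower (log2 difference -3.00) and Thy1 and Dcn higher (3.04 and 3.81), so the sum does not stand for each marker. The median over the 8 tested markers, each as log2(RPM + 1) less its mean over libraries, was -1.77 and -1.77 in ESC. It was -1.34 and -0.21 in EpiLC, -1.41 and -1.30 at d4 and 1.45 and 1.79 in d4c7 FR10. Replicates differed most in d4c7 FGF2, E9.5c5 FR10 and E9.5c5 CsA, with a median absolute log2 difference over all tested genes of 0.47, 0.43 and 0.60, against 0.19 to 0.29 in the other 6 groups. Calls were therefore also made without replicate 2 of these 3 groups, an exclusion chosen after seeing the data. A difference within a pair does not say which replicate is the odd one. With 1 library left, these groups add nothing to the estimate of spread, which favours more calls in all comparisons. The labels' protocols call the cultured replicates biological and say nothing of the others, for which p-values measure the spread between these libraries, which may be technical. In bulk libraries, fewer cells of a type and less RNA per cell cannot be told apart. Of the 94 genes 31 overlap another RefSeq gene, and reads of neighbours could be mixed, as the labels do not say whether counting used the strand.

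Together the 94 genes took 34282 ± 276 RPM in ESC (mean ± SD, n = 2 here and below) and 30486 ± 1027 RPM in EpiLC. The sum was lowest at d4, at 25165 and 27760 RPM, and both values lay below those of the other 16 libraries. It was 30694 ± 36.1 RPM in d4c7 FR10, 31134 ± 1534 in FGF10 and 32889 ± 398 in FGF2. The highest values, 37378 and 36455 RPM, were those of d4c7 CsA. E9.5c5 FR10 held 33246 ± 207 RPM and E9.5c5 CsA 32550 ± 1796 RPM. Complex V supplied 28.2% to 39.4% of the sum in a library, complex IV subunits 25.7% to 33.3% and complex I subunits 21.2% to 28.8%. Complex II supplied 0.872% to 2.92%. These are levels on the RPM scale of 3′ reads, with no correction for length.

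**Figure D1:**
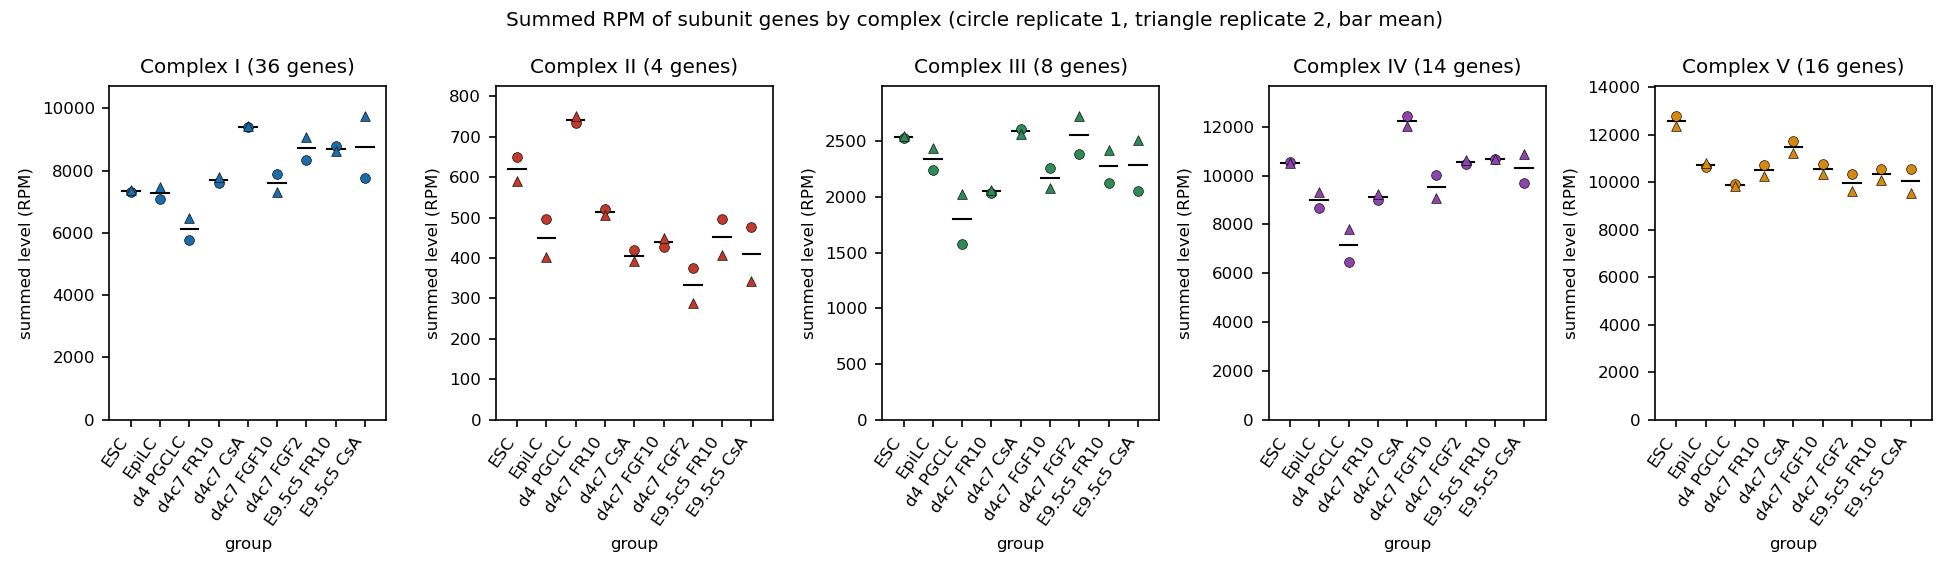
Summed level of the subunit genes of each complex (RPM, vertical axes from 0) in the 9 groups, with 1 symbol per library and a bar at the group mean. The means of complexes I, III, IV and V were lowest at d4, that of complex V by little (9883 RPM, beside 9988 RPM in d4c7 FGF2). Complex II was highest at d4, at 734 and 751 RPM.

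The most abundant member by mean RPM over the 18 libraries was Atp5g3, which encodes the membrane-ring subunit c of the ATP synthase, at 1430 RPM. Cox5a and Cox4i1, nuclear subunits of complex IV, averaged 1345 and 1254 RPM, and Atp5b, the catalytic beta subunit of the synthase, 1304 RPM. At the other end Cox7a1, the heart and muscle isoform of a complex IV subunit, averaged 9.91 RPM and Atp5s 12.2 RPM. Just inside the threshold, the second highest library stood at 14.8 RPM for Cox7a1 and 18.6 RPM for Atp5s. Just outside it, the second highest library stood at 8.92 RPM for Cox15, which makes heme A for complex IV, and at 5.47 RPM for Cox7b2. The isoforms Cox4i2 and Cox8b were listed at 0 in all libraries, and Cox6a2, Cox8c and Ndufa4l2 reached at most 5.47, 3.87 and 3.4 RPM.

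Core subunits and abundant accessory subunits were followed as a panel over the 18 libraries, each given by its lowest, median and highest RPM. In complex I, Ndufs1, the largest iron-sulfur subunit, had 58.4, 105 and 173 RPM and Ndufab1, the mitochondrial acyl carrier protein, 229, 574 and 673 RPM. In complex III, the core subunit Uqcrc1 had 249, 388 and 851 RPM and the Rieske protein Uqcrfs1 179, 223 and 308 RPM. The highest Uqcrc1 value was that of d4c7 FGF2 replicate 2 and the highest Uqcrfs1 value that of d4 replicate 2. In complex IV, Cox4i1 had 859, 1296 and 1674 RPM, Cox6c 139, 659 and 954 RPM and Cox8a, a small membrane subunit, 410.0, 847 and 1088 RPM. In complex V, the catalytic subunit Atp5b had 554, 1338 and 1758 RPM, the rotor subunit Atp5c1 416, 670.0 and 936 RPM and the small rotor subunit Atp5e 80.1, 163 and 263 RPM. The lowest library of Cox6c was d4 replicate 1, and that of Cox4i1 was d4 replicate 2. The least abundant complex I subunit was Ndufa3, at a mean of 34.4 RPM, and the most abundant Ndufa7, at 610.0 RPM.

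Differences were tested with limma on log2(RPM + 1) over all 9561 genes, a scale that understates the changes of low genes, and a gene was called at a Benjamini-Hochberg adjusted p under 0.05. From ESC to EpiLC, the exit from naive pluripotency, the complex IV subunits Cox6b2, Cox6a1 and Cox6b1 and the complex I assembly factor Ndufaf1 fell, and the complex IV assembly factor Cox16 rose. This is 4 of 94 lower and 1 higher, where 8.86% and 7.09% of all tested genes were called lower and higher, so both shares of the 94 (4.26% and 1.06%) were below those of all genes. The median difference of the 94 was -0.10, beside 0.01 over all genes. Complex II had the lowest median of the complexes, -0.46, with all 4 subunits below 0 and none called.

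Cox6b2 encodes the testis isoform of subunit VIb, which faces the intermembrane space, and Cox6b1 the ubiquitous isoform. Cox6b2 (chr7:4751792-4753094, GRCm38.p6) measured 133 and 135 RPM in ESC and 65.0 and 54.9 RPM in EpiLC. The groups lay apart, with a log2 difference of -1.15 ± 0.22 (SE, limma adjusted p = 0.0016). Cox6b1 (chr7:30616971-30626114) measured 584 and 605 RPM in ESC and 328 and 395 in EpiLC (-0.72 ± 0.22, limma adjusted p = 0.0294). Both isoforms were thus lower in EpiLC. Cox6a1, a further ubiquitous subunit of complex IV, went from 837 and 846 to 481 and 529 RPM, and Ndufaf1 from 34.4 and 37.2 to 15.6 and 19.7 RPM. Cox16 went from 28.9 and 35.3 to 60.0 and 66.2 RPM. Of these 5 calls, Cox6b2 alone held when each of the 4 libraries was left out in turn, and 1 of the 94 was called in each case, where 8.79% (without ESC replicate 1), 9.2% (ESC replicate 2), 9.85% (EpiLC replicate 1) and 8.64% (EpiLC replicate 2) of all genes were. Under median-ratio scaling, which sets the middle of the genes level between libraries, 3 were called lower and 0 higher (background 9.24% and 7.64%). Without the 3 libraries the split was 20 lower and 6 higher (background 15.1% and 14.4%), and with the 6 uncultured libraries alone 23 lower and 6 higher (background 17.1% and 17%).

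From EpiLC to d4 PGCLCs, as germ cell fate is induced, subunits of complexes I, III, IV and V fell while subunits of complex II rose. Of the 94 genes 20 were called lower and 7 higher, where 12.1% of all tested genes were called lower and 27.5% higher. The 94 had a median of -0.19, beside 0.34 over all genes, and 18 of them lay above the all-gene median. Complex I had 8 of 36 subunits called lower and 2 higher, complex III 2 of 8 lower and 1 higher, complex IV 5 of 14 lower and 1 higher, and complex V 4 of 16 lower and 0 higher. With median-ratio scaling the all-gene median moved from 0.34 to 0.00 and that of the 94 to -0.55, with 39 called lower and 0 higher (background 18.8% and 17.2%). The 7 rises among the 94, those of complex II included, therefore lost their calls with that scaling. The medians of the assembly factors of complexes I and IV changed sign with it, from 0.10 and 0.22 to -0.25 and -0.15. The medians of complexes I, III, IV and V were below 0 and that of complex II above 0 on both scales.

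In complex I, Ndufv3, a small subunit of the NADH-oxidising flavoprotein part, measured 156 and 181 RPM in EpiLC and 56.4 and 78.4 RPM at d4. The groups did not overlap, and the difference was -1.32 ± 0.22 (limma adjusted p = 0.000186). Ndufa5, an accessory subunit, went from 74.1 and 92.5 to 20.2 and 51.0 RPM (-1.34 ± 0.32, limma adjusted p = 0.00329). In the opposite direction Ndufv1, the flavoprotein subunit that binds NADH, went from 145 and 108 to 226 and 189 RPM, and the assembly factor Ndufaf1 from 15.6 and 19.7 to 37.6 and 33.6 RPM. Ndufa11, a membrane-arm subunit, rose from 184 and 216 to 299 and 337 RPM. Complex I therefore held calls in both directions, most of them lower.

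In complex III, Uqcrq, a small accessory subunit, went from 385 and 479 RPM to 162 and 203 RPM (-1.24 ± 0.19, limma adjusted p = 7.64e-05), and Uqcr10 from 241 and 246 to 97.7 and 176 RPM. Uqcrc2, a large core subunit, rose from 61.0 and 66.2 to 170.0 and 127 RPM (1.20 ± 0.35, limma adjusted p = 0.0131). Uqcrq and Uqcr10 thus went the opposite way to Uqcrc2. In complex IV, Cox6c, an accessory subunit, fell from 614 and 720.4 to 139 and 402 RPM (-1.49 ± 0.39, limma adjusted p = 0.00593). Cox7c went from 1195 and 1437 to 449.9 and 942 RPM, with Cox7b, Cox8a and Ndufa4 lower as well. Cox7a2l, which takes part in joining complexes III and IV, rose from 277 and 271 to 489 and 401 RPM. In complex V, Atp5k, the small subunit e, went from 112 and 135 to 29.1 and 96.0 RPM (-1.20 ± 0.42, limma adjusted p = 0.0311), and its d4 replicates lay far apart. Atp5l, Atp5f1 and Atp5o, which encode further subunits of the membrane part and stalk, were also called lower.

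Of the d4 libraries, replicate 1 was the lower for Cox6c, Cox7c, Ndufa5 and Atp5k. Leaving out d4 replicate 1 left 6 calls among the 94, where 24.4% of all genes were called, and leaving out EpiLC replicate 1 or 2 left 13 or 11, where 27.4% or 25.2% were. Without d4 replicate 1 the differences of Cox6c, Ndufa5 and Atp5k were -0.73, -0.69 and -0.35 and were not called. The medians were then -0.09 over the 94, -0.21 in complex I, -0.25 in complex III and -0.18 in complex V, against -0.19, -0.35, -0.42 and -0.33 with all libraries. Of the 5 largest called falls and the 5 largest called rises, Ndufv3 and Uqcrq were called under each of the 4 exclusions. Without the 3 libraries 36 were lower and 17 higher (background 17.7% and 37.8%), and with the uncultured libraries alone 38 were lower and 19 higher (background 19.5% and 40.2%).

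**Figure D2:**
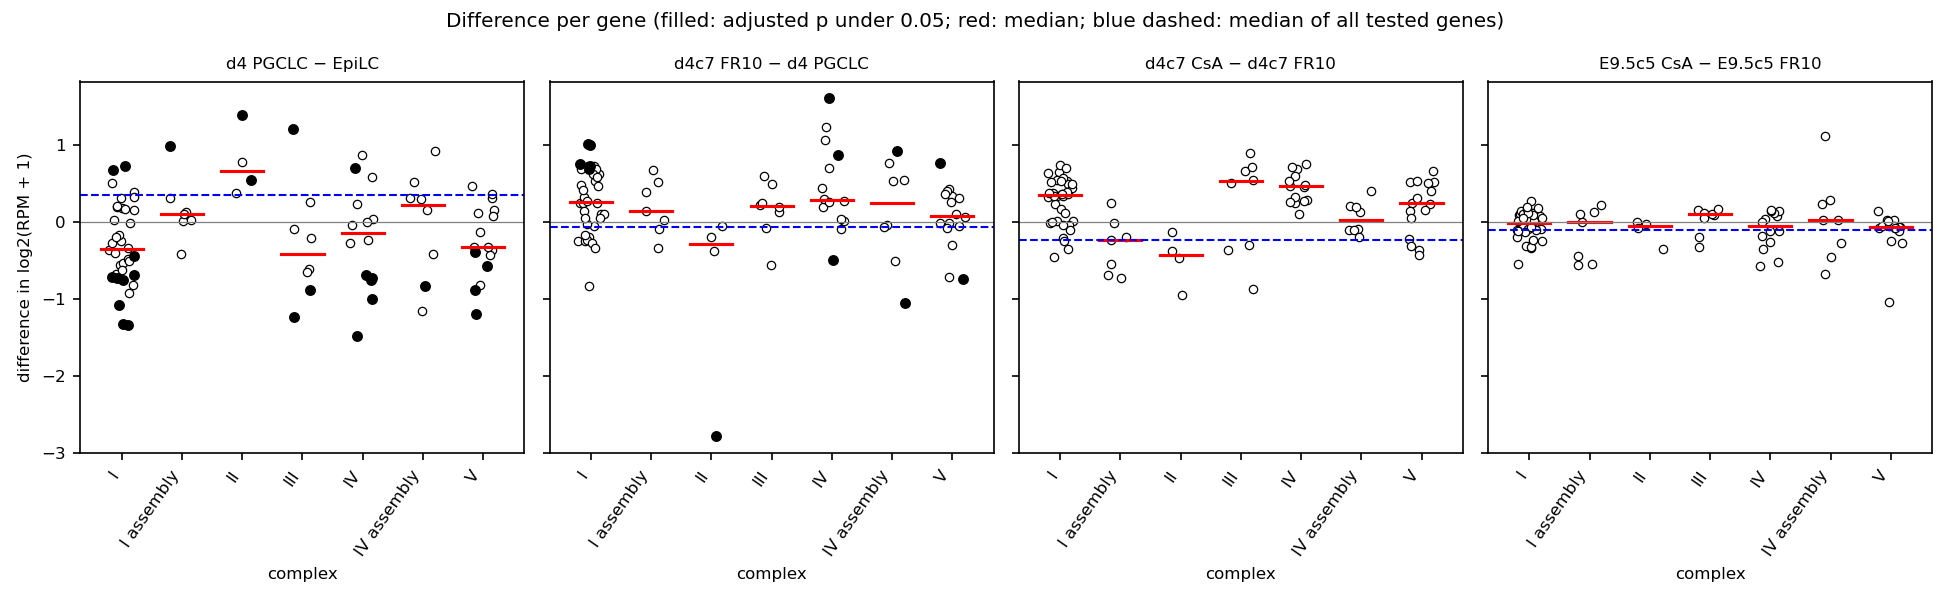
Difference in log2(RPM + 1) of each gene by complex in 4 comparisons, with filled points for genes called at a limma adjusted p under 0.05, red bars at the medians and a dashed line at the median of all 9561 genes. For d4 against EpiLC the medians of complexes I, III, IV and V lie below the dashed line, and that of complex II, 0.66, lies above it.

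Between d4 PGCLCs and those cultured in FR10, the level of Sdhd, a membrane anchor subunit of succinate dehydrogenase, was lower, and those of Cox6b2 and the complex I subunit Ndufa6 were higher. Of the 94 genes 9 were called higher and 4 lower than at d4, where 7.01% and 8.22% of all tested genes were called higher and lower. The called shares of the 94, 9.57% higher and 4.26% lower, were thus near the background for rises and below it for falls. The median of the 94 was 0.24, beside -0.07 over all genes, and it was 0.10 without d4 replicate 1 and 0.37 without d4 replicate 2. The 5 complex I subunits called, Ndufa6, Ndufs8, Ndufs7, Ndufv3 and Ndufb6, were all higher. Median-ratio scaling gave 13 higher and 2 lower (background 7.97% and 7.07%), and without the 3 libraries 29 were higher and 5 lower (background 13.8% and 17.2%). The strain label and the feeders change together with the culture between these groups, and their parts cannot be told apart. Of the 8 tested fibroblast markers 5 were called higher in FR10, with Dcn at 0 and 0 RPM at d4 and 76.7 and 69.4 RPM in FR10. Lum, a further such marker, was at 0 in all libraries. The part of feeder RNA in these differences was not tested.

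Sdhd (chr9:50596340-50603849) measured 185 and 185 RPM at d4 and 27.9 and 24.2 RPM in d4c7 FR10. The values did not overlap, and the difference of -2.78 ± 0.49 amounts to 0.145-fold (limma adjusted p = 0.000972). Cox6b2 went from 54.5 and 68.7 to 179 and 196 RPM (1.60 ± 0.22, limma adjusted p = 0.000156), above the ESC values as well. Ndufa6 (chr15:82350139-82354291), an accessory subunit of complex I, went from 176 and 226 to 407 and 398 RPM (1.01 ± 0.16, limma adjusted p = 0.000502). These 3 calls held with each of the 4 libraries left out in turn and under median-ratio scaling.

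Ndufs8 and Ndufs7, iron-sulfur subunits of complex I, went from 71.4 and 71.2 to 123 and 165 RPM and from 168 and 169 to 284 and 282 RPM. Cox5a went from 957 and 825 to 1577 and 1663 RPM. Cox18, which helps insert a mitochondrially made subunit of complex IV into the membrane, went from 53.5 and 61.4 to 99.1 and 119 RPM. Ndufv3 and Atp5l, both called lower at d4 than in EpiLC, were called higher in FR10 than at d4. These comparisons share the d4 libraries. The genes called lower beside Sdhd were Cox17, the copper chaperone of complex IV, Atp5j, a stalk subunit of the ATP synthase, and Cox5b. Atp5j went from 683 and 957 to 508 and 458 RPM. Cox17 measured 119.8 and 242 RPM at d4, with replicates far apart, and 82.5 and 79.8 RPM in FR10. Cox5b, which binds zinc at the matrix side of complex IV, measured 563 and 546 RPM at d4 and 372 and 410.5 RPM in FR10 (-0.50 ± 0.15, limma adjusted p = 0.0351). The Cox17 and Cox5b calls were lost under median-ratio scaling. With each of the 4 libraries left out in turn, the calls of Cox5a, Cox18 and Cox5b held in 0 cases. Those of Ndufs8 and Cox17 held in 1 case and that of Atp5j in 2. The calls of Ndufs7, Ndufv3 and Atp5l were not followed in this way. Leaving out d4 replicate 1 left 6 calls (background 5.99%), and leaving out d4c7 FR10 replicate 1 or 2 left 5 in each case (background 8.63% and 6.29%).

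Cyclosporin A was set against FR10 in d4c7 PGCLCs. Most subunits of complexes I, III, IV and V measured higher in CsA and those of complex II lower, but limma called none of the 94. Among all genes 0.0209% were called higher and 0.0105% lower. At an unadjusted p under 0.05, 21 of the 94 were higher and 1 lower, where 2.37% of all genes were higher and 11.4% lower. Voom, which weights log counts by their precision, called 0 of the 94 and 2 of all genes. The median of the 94 was 0.25, beside -0.24 over all genes, and under median-ratio scaling 0.48 beside -0.02. Both CsA libraries lay above both FR10 libraries for 48 of the 94 genes, where 11.4% of all genes did, and below them for 19, where 41.6% did. All 14 complex IV subunits had a difference above 0, with a median of 0.46. The medians were 0.52 in complex III, 0.34 in complex I, 0.24 in complex V and -0.43 in complex II. Summed fibroblast markers were 675 and 547 RPM in CsA, below both FR10 values. The median centred level of the 8 tested markers was 1.86 and -0.25 in CsA, against 1.45 and 1.79 in FR10, so that the 2 measures differ for CsA replicate 1. The part of these markers was not tested.

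Cox5b measured 372 and 410.5 RPM in FR10 and 633 and 623 RPM in CsA. Its replicates were close and the groups apart (0.68 ± 0.15, limma adjusted p = 0.104), the smallest p among the 94. Uqcr10, a small subunit of complex III, measured 163 and 207 RPM in FR10 and 323 and 360.5 RPM in CsA (0.89 ± 0.23, limma adjusted p = 0.135). Uqcrq measured 199 and 197 against 325 and 321 RPM (0.70 ± 0.19, limma adjusted p = 0.144). In the other direction Uqcrc2 measured 118 and 83.2 against 58.7 and 49.6 RPM, and Sdhd 27.9 and 24.2 against 10.7 and 15.7 RPM. Uqcrfs1, the Rieske iron-sulfur protein of complex III, measured 223 and 268 against 199 and 179 RPM. The cultured libraries alone gave 0 calls among the 94 (background 0%), and median-ratio scaling gave 0 (background 0.0837%). Of the alternatives run, only leaving out the 3 libraries, none of which belongs to these groups, gave calls. There 20 of the 94 were called higher and 3 lower (background 1.83% and 8.29%). The same differences are then set against a spread that leaves out the 3 groups whose replicates differed most. That choice by itself favours more calls, and the share of all genes called rose from 0.0314% to 10.1%. The calls of this fit are therefore no independent support for the differences. Cox5b, Uqcr10, Uqcrq, Uqcrc2 and Sdhd were among those calls, at limma adjusted p from 0.00149 (Cox5b) to 0.0256 (Sdhd).

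The differences of the 94 genes in CsA moved with transcript length, a relation examined after the values were seen. The median GENCODE transcript length was 849.5 nt over the 94 and 2862 nt over 9353 tested genes with a length. Within the 94 it was 614 nt for complex IV subunits and 2065.5 nt for complex II. Spearman's correlation of the log2 difference with length was -0.66 over the 94 and -0.22 over the 9353 genes, as a description across genes that share libraries. The 54 members under 1000 nt had a median difference of 0.42 and the other 40 one of -0.16. Over all tested genes the medians were 0.20 for the 663 under 1000 nt, -0.21 from 1000 to 3000 nt and -0.32 above. For d4 against EpiLC the correlation was 0.38 over the 94, with medians of -0.35 under 1000 nt and 0.14 from 1000 nt up. Over all genes it was 0.11, with medians of -0.18 under 1000 nt and 0.45 above 3000 nt. Differences between replicates of 1 group also had a relation with length, with correlations over the 94 of 0.54 at d4, 0.41 in E9.5c5 CsA, 0.38 in EpiLC and 0.34 in E9.5c5 FR10. The others were 0.28 in FGF2, 0.20 in d4c7 CsA, 0.10 in d4c7 FR10, -0.10 in ESC and -0.30 in FGF10. Over the 9353 genes these correlations were weaker, at -0.01 at d4, 0.20 in E9.5c5 CsA, 0.06 in EpiLC and 0.10 in E9.5c5 FR10. There they were 0.16 in FGF2, -0.04 in d4c7 CsA, 0.09 in d4c7 FR10, 0.06 in ESC and -0.02 in FGF10. The part of transcript length or RNA quality in these differences was not tested.

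**Figure D3:**
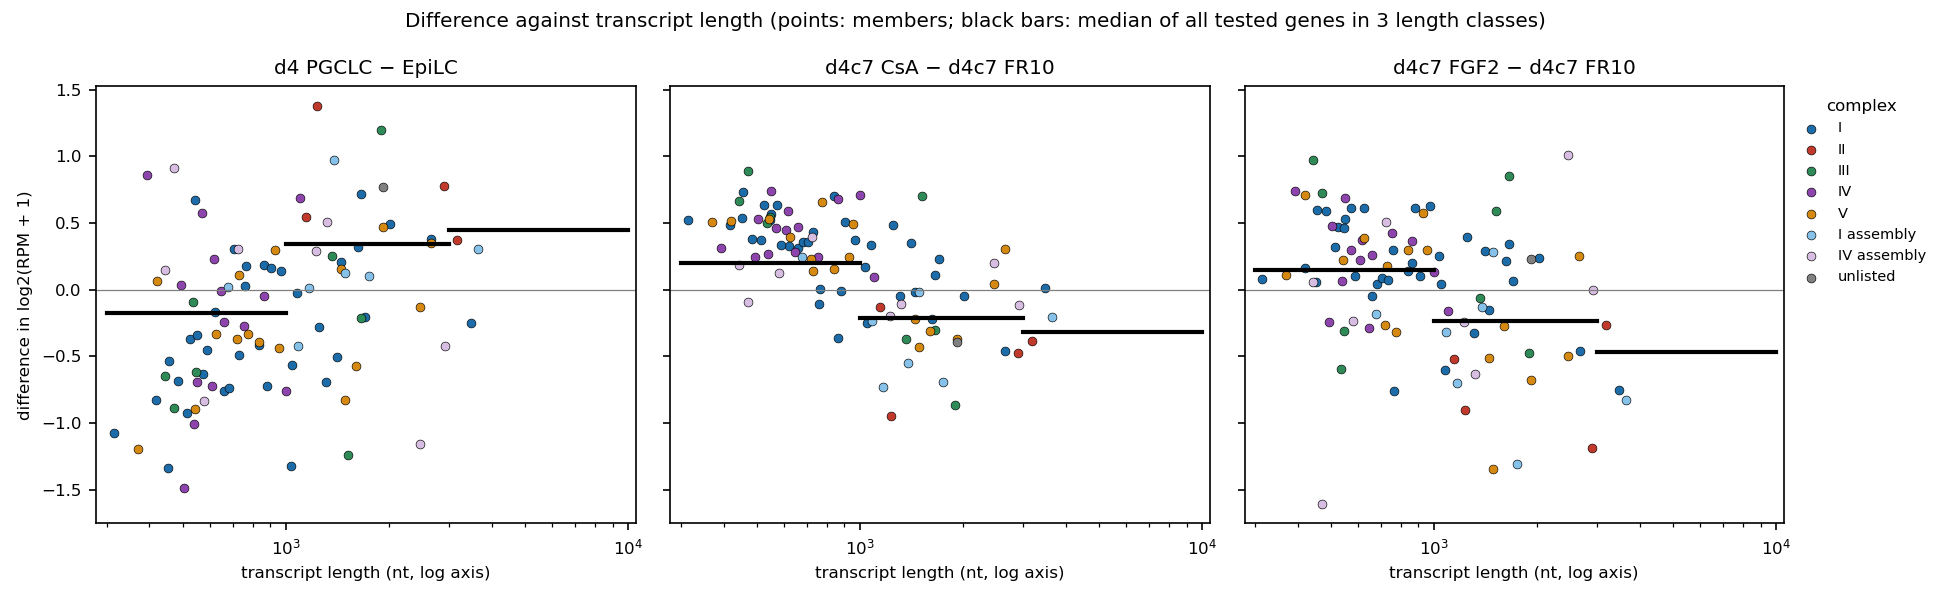
Difference in log2(RPM + 1) of each of the 94 genes against transcript length (nt, log axis) in 3 comparisons, coloured by complex, with black bars at the median of all tested genes in 3 length classes. For d4c7 CsA against FR10 the members under 1000 nt have a median of 0.42 and the longer ones one of -0.16.

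FGF10 and FGF2 cultures were compared with the same FR10 libraries, so these comparisons share their control with that of CsA. In FGF10 limma called none of the 94 and 0% of all genes. At an unadjusted p under 0.05, 0 of the 94 were higher and 1 lower, where 2% of all genes were higher and 2.99% lower. Voom called 0 of the 94 and 0 of all genes. The median was 0.02, beside -0.08 over all genes, with a length correlation of -0.39 over the 94, and it was -0.01 without FR10 replicate 1 and -0.03 without FGF10 replicate 1. The smallest p was that of Atp5s, a factor of the ATP synthase stalk region, at 15.5 and 15.5 RPM in FR10 and 3.71 and 4.9 RPM in FGF10 (-1.65 ± 0.45, limma adjusted p = 0.691). Cox6b2 measured 154 and 128 RPM in FGF10 and Ndufb3, an accessory subunit of complex I, 103 and 85.4 RPM, both below the FR10 values of 179 and 196 and 159 and 119 RPM.

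In FGF2 the ATP synthase delta subunit Atp5d rose and the assembly factors Cox20 and Ndufaf4 fell. This is 1 higher and 2 lower of 94, where 1.37% and 7.47% of all genes were called, so neither share of the 94 exceeded that of all genes. Atp5d measured 311 and 332 RPM in FR10 and 471 and 487 RPM in FGF2, with close replicates (0.57 ± 0.17, limma adjusted p = 0.0442). Ndufaf4, which helps build complex I, went from 86.0 and 71.5 to 48.7 and 39.4 RPM (-0.83 ± 0.23, limma adjusted p = 0.0361), and Cox20, a chaperone in complex IV assembly, from 12.8 and 15.5 to 3.81 and 4.13 RPM. With each of the 4 libraries left out in turn, the Atp5d and Cox20 calls held in 0 cases and the Ndufaf4 call in 1. The Atp5d and Cox20 calls were also lost without a filter and with voom. Those of Cox20 and Ndufaf4 were lost under median-ratio scaling. The median of the 94 was 0.11, beside -0.33 over all genes, and 0.24 without FGF2 replicate 1. The length correlation over the 94 was -0.36, and its part was not tested. With median-ratio scaling the median was 0.41 beside -0.03, and 8 were called higher and 0 lower (background 2.96% and 2.7%). Leaving out FGF2 replicate 1 gave 12 calls, 12.8% of the 94 where 18% of all genes were called. Leaving out FGF2 replicate 2 or either FR10 library gave 0 (background 0.784%, 0.0523% and 1.58%). Without the 3 libraries, FGF2 replicate 2 among them, 4 were higher and 4 lower (background 1.85% and 9.59%), and the cultured libraries alone gave 0 calls (background 0.0209%). Complex II had the lowest median of the complexes, -0.71, with Sdha at 187 and 155 RPM in FR10 and 107 and 51.0 RPM in FGF2, and none of its 4 genes was called. Summed fibroblast markers were 558 and 460.2 RPM in FGF10 and 408 and 153 RPM in FGF2, below both FR10 values. The median centred level of the 8 tested markers was 2.19 and -0.02 in FGF10 and -0.03 and -0.38 in FGF2, against 1.45 and 1.79 in FR10. By that measure FGF10 replicate 1 lay above both FR10 libraries. The part of these markers was not tested.

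In germ cells taken from E9.5 embryos, none of the 94 was called between CsA and FR10 by limma, nor was any of all genes (0%). At an unadjusted p under 0.05, 1 of the 94 was higher and 3 were lower, where 2.12% of all genes were higher and 5.23% lower. Voom called 0 of the 94 and 1 of all genes. Neither share of the 94 at an unadjusted p under 0.05 exceeded that of all genes. The median was -0.05, beside -0.11 over all genes, and with median-ratio scaling 0.06 beside 0.00. Without E9.5c5 CsA replicate 1 it was 0.04. Complex IV had 6 subunits above 0 and 8 below. Cox5b measured 625 and 550.0 RPM in FR10 and 539 and 670.4 RPM in CsA, so the groups overlap. Cox6b2 measured 319.8 and 382 against 200.1 and 276 RPM (-0.57 ± 0.22, limma adjusted p = 0.601). Of the assembly factors, Cox19 measured 11.2 and 6.28 against 10.8 and 33.9 RPM and Cox16 58.9 and 83.4 against 39.5 and 47.3 RPM. Summed fibroblast markers were 455 and 302 RPM in FR10 and 697 and 164 RPM in CsA, with CsA replicates far apart, and their part was not tested. Leaving out E9.5c5 CsA replicate 1 gave 3 calls, where 6.84% of all genes were called. Whether the CsA difference itself differed between embryo cells and PGCLCs was tested, and limma called none of the 94 and 0% of all genes. At an unadjusted p under 0.05, 0 of the 94 were higher and 11 lower, where 4.86% of all genes were higher and 1.58% lower. Voom called 0 of the 94 and 0 of all genes. That contrast, embryo cells minus PGCLCs, had a median of -0.60 in complex IV and 0.26 in complex II, beside 0.10 over all genes. The complex II median was -0.03 without E9.5c5 CsA replicate 1. Complex IV holds short transcripts and complex II long ones, and Spearman's correlation of this contrast with length was 0.60 over the 94, with medians of -0.46 under 1000 nt and 0.03 from 1000 nt up. The part of length was not tested. The smallest p of the contrast was that of Cox5b (-0.65 ± 0.22, limma adjusted p = 0.722), followed by the complex IV subunit Cox8a (-0.86 ± 0.30). In the other direction it was led by Uqcrc2 (1.02 ± 0.50).

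Cultured embryo cells in FR10 were also set against d4c7 PGCLCs in FR10. These groups differ in origin, strain label, reporter and days of culture together, and the parts of these cannot be told apart. Limma called none of the 94, where 0.0314% of all genes were called higher and 0.0105% lower. At an unadjusted p under 0.05, 10 of the 94 were higher and 4 lower, where 3.16% of all genes were higher and 11.7% lower. Voom called 0 of the 94 and 3 of all genes. The median was 0.18, beside -0.20 over all genes. Summed fibroblast markers were 455 and 302 RPM in the embryo cells and 808 and 706 RPM in the PGCLCs, and the correlation of the difference with transcript length was -0.48 over the 94. Their part in the difference was not tested. The smallest p was that of Cox6b2, at 179 and 196 RPM in PGCLCs and 319.8 and 382 RPM in embryo cells (0.90 ± 0.22, limma adjusted p = 0.159). Ndufb11, a membrane subunit of complex I, measured 206 and 258 against 377 and 385 RPM (0.72 ± 0.19, limma adjusted p = 0.171). On the lower side Ndufaf5, an assembly factor of complex I, measured 48.4 and 32.8 against 28.2 and 11.3 RPM (-1.11 ± 0.45, limma adjusted p = 0.286). Without the 3 libraries, which leaves 1 embryo library in FR10, the difference of Cox5b was 0.68.

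Complex II, described here across all groups, had a summed level of 620.3 ± 41.9 RPM in ESC, 449 ± 67.2 in EpiLC, 743 ± 11.4 at d4 and 514 ± 9.15 in d4c7 FR10. The other PGCLC cultures held 405 ± 19.8 (CsA), 438 ± 17.0 (FGF10) and 332 ± 60.6 RPM (FGF2), and the embryo cells 453 ± 62.1 (FR10) and 409.6 ± 94.3 RPM (CsA). Sdhd was at 92.9 and 94.5 RPM in ESC, 82.1 and 60.4 in EpiLC and 185 and 185 at d4, a called rise (1.38 ± 0.49, limma adjusted p = 0.0327). That call was lost with any 1 of the 4 libraries left out and under median-ratio scaling (1.01, limma adjusted p = 0.136). In culture Sdhd stood at 27.9 and 24.2 RPM in FR10, 10.7 and 15.7 in CsA, 19.7 and 31.2 in FGF10, 8.37 and 21.1 in FGF2, 12.6 and 43.7 in E9.5c5 FR10 and 16.6 and 32.0 in E9.5c5 CsA. All 12 cultured libraries lay below all 6 uncultured ones. Strain label and feeders change together with culture between these libraries, and their parts cannot be told apart.

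Sdhb, which carries the iron-sulfur clusters, measured 141 and 132 RPM in EpiLC and 198 and 200.2 at d4, a called rise (0.54 ± 0.20, limma adjusted p = 0.042), and 172 and 213 RPM in FR10. Sdha, the catalytic flavoprotein, ranged from 51.0 to 209.7 RPM over the 18 libraries and measured 183 and 209.7 RPM at d4. Sdhc, the partner of Sdhd in the membrane, ranged from 76.3 to 186 RPM. From d4 to FR10 Sdhc went from 169 and 156 to 134 and 115 RPM (-0.38 ± 0.24, limma adjusted p = 0.323), beside the log2 difference of -2.78 for Sdhd. Whether these differences differ between the genes was not tested.

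**Figure D4:**
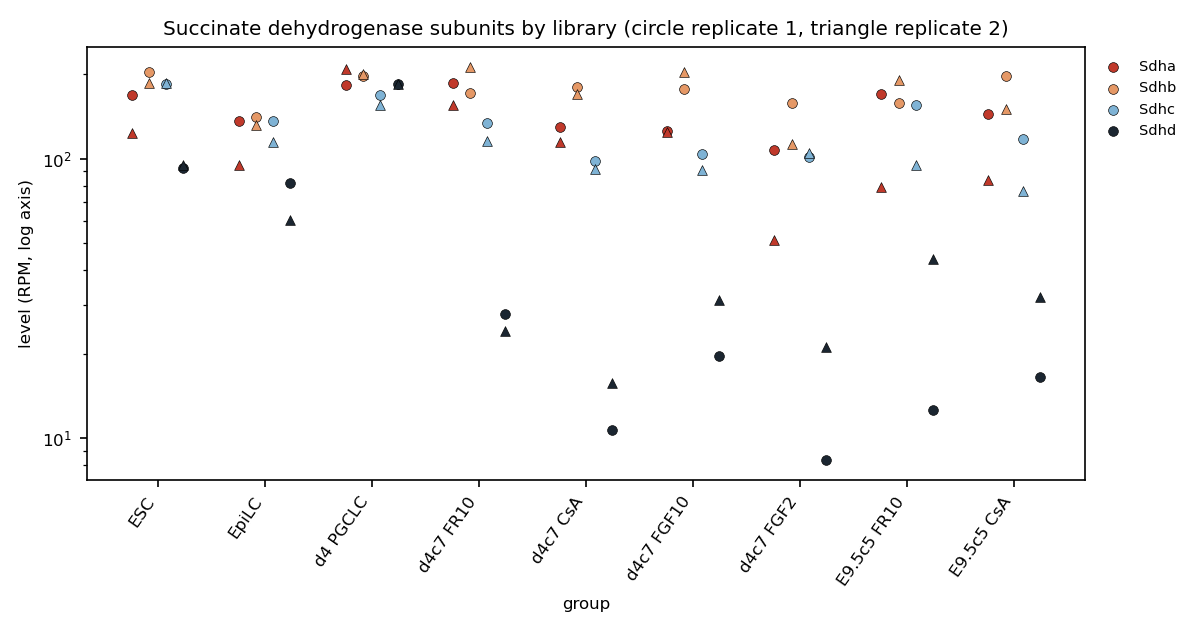
Level of the 4 succinate dehydrogenase subunits (RPM, log axis) in each library by group. Sdhd lies at 185 and 185 RPM in the d4 libraries and between 8.37 and 43.7 RPM in the 12 cultured ones, while the other 3 subunits lie between 51.0 and 213 RPM in all 18.

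Complex IV contains subunits with tissue-specific isoforms, which allow a comparison within a pair. Of the summed RPM of Cox6b1 and Cox6b2, the testis isoform Cox6b2 made up 18.6% and 18.2% in ESC, 16.5% and 12.2% in EpiLC and 13.2% and 12.2% at d4. It made up 31.0% and 33.2% in d4c7 FR10, 29.3% and 25.2% in CsA, 25.4% and 25.2% in FGF10 and 30.9% and 17.5% in FGF2. In the embryo cells it made up 41.3% and 42.7% in FR10 and 31.4% and 29.9% in CsA. Apart from FGF2 replicate 2, every cultured library lay above every uncultured one, and here too strain label and feeders change together with culture. Cox6b1 itself measured 359.7 and 495 RPM at d4 and 399 and 393 in d4c7 FR10, so that its groups overlap. Cox7a1 passed the threshold of 10 RPM in 9 libraries, all of them cultured, so its levels describe the choice of members and no contrast is drawn from them. It ranged from 1.52 to 30.1 RPM over the 18 libraries and made up at most 3.75% of its sum with Cox7a2, the liver-type isoform. Atp5g1 and Atp5g3 encode the same mature subunit c of the ATP synthase, as does Atp5g2. Atp5g1 made up 29.1% to 33.5% of its sum with Atp5g3 in ESC and EpiLC, 38.9% and 43.1% at d4 and 41.7% to 60.1% in the cultures. Isoform and copy genes can share reads, which leaves the split between them uncertain.

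**Figure D5:**
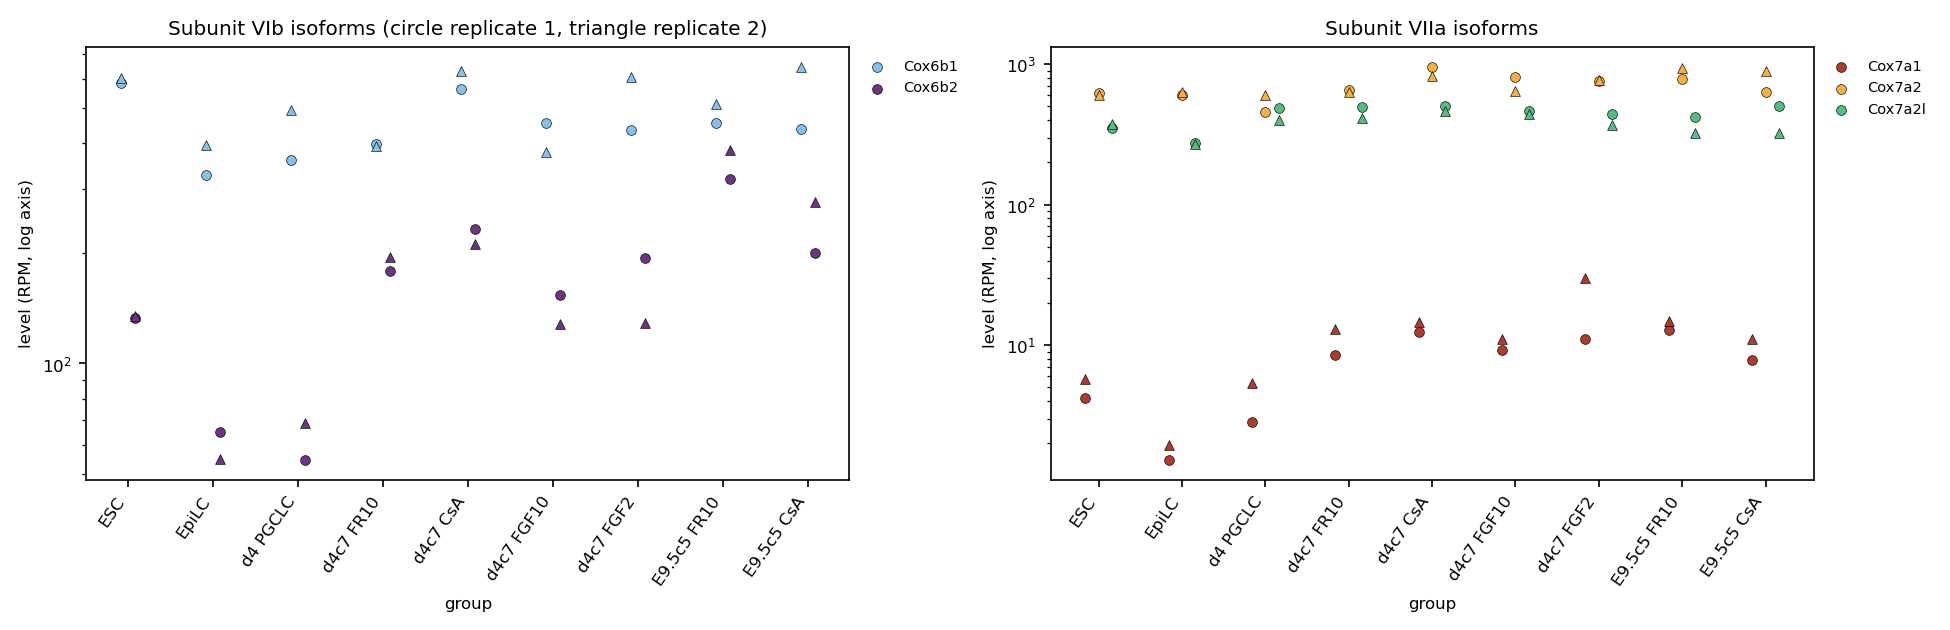
Levels (RPM, log axes) of the Cox6b1 and Cox6b2 isoforms, left, and of Cox7a1, Cox7a2 and Cox7a2l, right, in each library by group. Cox6b2 lies at 54.5 to 68.7 RPM in EpiLC and d4 and at 128 to 382 RPM in the cultured libraries.

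Genes of the pathway outside the symbol rule were followed from lists. Cyct, the testis cytochrome c, measured 43.7 and 31.8 RPM in ESC, 128 and 118 in EpiLC, 6.57 and 10.4 at d4 and 93.3 and 83.9 in d4c7 FR10. It rose, fell and rose again over these steps, by 1.69 ± 0.34 (limma adjusted p = 0.00197), -3.74 ± 0.34 (limma adjusted p = 3.79e-07) and 3.27 ± 0.34 (limma adjusted p = 1.02e-05). Cyct and its somatic counterpart Cycs are closely related and could share reads. Among the 6 such subunits and carriers, 5 were called lower at d4 than in EpiLC, with Atpif1, the inhibitor of the ATP synthase, at -1.22 ± 0.17 and Cyc1, the cytochrome c1 of complex III, going from 447 and 523 to 246 and 236 RPM. Of 24 other assembly factors, 4 were called higher and 2 lower at d4, shares of 16.7% and 8.33% where 27.5% and 12.1% of all genes were called. With median-ratio scaling 2 were called higher and 3 lower (background 17.2% and 18.8%). Ecsit, which takes part in complex I assembly, fell from 39.4 and 31.0 to 3.29 and 7.14 RPM, and Lrpprc, which stabilises mitochondrial mRNAs, rose from 19.6 and 22.8 to 74.7 and 52.1 RPM.

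Of 16 enzymes of the tricarboxylic acid cycle, which supplies the chain with electrons, 8 were called higher and 0 lower at d4 than in EpiLC, against 27.5% and 12.1% of all genes. Their median was 0.52, beside 0.34 over all genes. Idh3b, a subunit of isocitrate dehydrogenase, measured 60.4 and 66.9 RPM in EpiLC and 181 and 147 at d4. Fh1, the fumarase, measured 61.9 and 54.6 against 136 and 129.6 RPM, and Sucla2, a subunit of succinyl-CoA ligase, 36.8 and 48.0 against 102 and 108 RPM. Of 12 regulators of mitochondrial biogenesis 5 were called higher and 0 lower. They include Polg, the mitochondrial DNA polymerase, which went from 22.7 and 24.4 to 67.2 and 53.5 RPM, and Polrmt, the mitochondrial RNA polymerase. With median-ratio scaling 3 enzymes were called higher and 1 lower, and 2 regulators higher, where 17.2% of all genes were called higher and 18.8% lower, so that the rises of both lists were then near the share of all genes. In d4c7 CsA against FR10 the enzymes had a median of -0.30 and the regulators one of -0.27, beside -0.24 over all genes, and limma and voom called none of either list. At an unadjusted p under 0.05, 4 enzymes and 3 regulators were lower there and none was higher, where 11.4% of all genes were lower and 2.37% higher. In FGF2 the regulators Tfb1m (-1.51 ± 0.39, limma adjusted p = 0.0285) and Yy1 (-0.84 ± 0.25, limma adjusted p = 0.0446) were called lower, where 7.47% of all genes were, and both calls were lost under median-ratio scaling.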

How the data were processed

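Mouse SC3-seq libraries, 18 in 9 groups of 2, were analysed from the authors' deposited RPM values (reads scaled to a common library total), 1 file per library with 34896 gene rows, of which 46 had no value. Tools listed in the submitters' processing notes are TopHat 1.4.1, cutadapt 1.3 and Cufflinks 2.2.0, with the build mm10, and their settings are not given there. The RPM values are not whole numbers. Of the low nonzero values of a library, 99.5% to 99.9% fell on a ladder of equal steps (within 0.02 read). Each step was taken as 1 read, which gave the depth. In each library 32 to 56 values lay below 0.5 of a read, so count models were not used. Depth sets the counting error, which is largest for genes near 10 RPM.

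Genes at 10 RPM or more in at least 2 libraries were kept (9561). limma 3.58.1 in R 4.3.3 was fitted to log2(RPM + 1) with 1 mean per group over all 18 libraries (9 residual degrees of freedom, moderated variances with a trend), and Benjamini-Hochberg adjustment ran over all 9561 genes. The fit was also run on simulated libraries with known changes, as a check of the code only, and no call rests on that run. Named genes were, in each comparison and direction, the 5 called changes of largest size whose groups did not overlap, or the 3 smallest p-values where none was called, with a panel of core subunits, the isoform families, the extremes of each complex and up to 3 called genes per pathway list. Ndufa11, Ndufs7, Uqcr10 at d4, Sdhc and the other genes named beyond this were chosen after their values were seen. The 94 genes, the lists, the promoters shown, the motifs, the length classes and the isoform pairs were chosen with earlier results of these data known. Alternatives were other pseudocounts, filters, median-ratio scaling, a replicate block, subsets of libraries, each library left out, and voom on inferred reads. Promoters came from RefSeq (GRCm38.p6) and lengths from GENCODE vM21. All 94 genes had a RefSeq gene and a length.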

Additional observations from a re-analysis of the deposited data

How the results depend on the processing

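With 2 libraries per group, many calls depended on which libraries set the spread, for the 94 genes and for all genes. Each number of calls among the 94 is followed here by the percent of all genes called in the same fit. Of 5 (16%) calls from ESC to EpiLC, no low-value filter gave 2 (12.4%), median-ratio scaling 3 (16.9%) and the replicate block 8 (17%). Voom gave 10 (19.8%) and the uncultured libraries alone 29 (34.1%). Leaving out the 3 libraries, replicate 2 of the groups whose replicates differed most, gave 26 (29.5%). Of 27 (39.6%) calls from EpiLC to d4 the uncultured libraries alone gave 57 (59.8%) and leaving out the 3 libraries 53 (55.5%). Leaving out the 3 libraries gave 34 (31%) calls where 13 (15.2%) were made from d4 to FR10. For CsA against FR10 in PGCLCs it gave 23 (10.1%) where 0 (0.0314%) were made. Every other alternative gave 0 calls there, the cultured libraries alone (0%) among them. For embryo cells against PGCLCs in FR10, with 0 (0.0418%) calls, leaving out the 3 libraries left 1 embryo library, so its count is not given. For FGF2 against FR10, with 3 (8.84%) calls, a pseudocount of 10 RPM gave 6 (10.2%), no filter 1 (2.64%) and a filter at 50 RPM 6 (12.3%). Median-ratio scaling gave 8 (5.66%), the replicate block 10 (12.2%) and the cultured libraries alone 0 (0.0209%). Leaving out the 3 libraries left 1 FGF2 library, so that count is not given either. Leaving out 1 library at a time gave 1 to 1 calls for EpiLC, 6 to 25 for d4, 5 to 11 for FR10, 0 to 12 for FGF2 and 0 to 3 for E9.5c5 CsA, and 0 to 0 in the other 4 contrasts, with the lone library assumed to vary like the other groups. The cause of these moves was not tested. Cox19 in E9.5c5 CsA against FR10 reversed to -0.0458 without the 3 libraries. Of 749 values of single genes under an alternative, 641 kept their side of the threshold and 100 lost a call. The 749 pool genes named for a call with genes named though not called, which could not lose a call. The 641 are therefore no measure of how many calls held. Of the 100 losses, 68 came with 1 library left out. Of 960 medians of the 94 or of a complex under an alternative, 135 moved by more than the spread between replicates and 60 changed sign. Of the 135, 77 came with 1 library left out and 41 with median-ratio scaling, and of the 60 sign changes 39 and 11. The replicate block changed no count other than those given by over 1.5 times. Correlations between the deviations of same-numbered libraries were 0.34 for E9.5c5 CsA against E9.5c5 FR10 and -0.03 to 0.13 in the other comparisons. The numbers were not taken to pair libraries. The replicate block is 1 shared offset over all groups, so a pairing within the embryo cells alone was not tested. Depth limits the values near 10 RPM most. The fit from d4 to FR10 with cultured or uncultured libraries alone could not be made, since it needs both.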
